A study of Mus musculus with 18 samples.

Results

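The antiviral interferon-stimulated genes described here were 51 genes named by symbol in a list that was drawn up with earlier results of these data known; no measured value is part of its rule. All 51 were among the 24485 genes listed for each of the 18 RNA-seq libraries. The libraries came from bone marrow-derived macrophages (BMDMs) of 3 Il10-/- mice on the C57BL/6J background, which the study's methods give as 12-week-old males, and each mouse gave 1 library to each of 6 groups. The study asked how inhibition of BET proteins with (+)-JQ1, compared with added IL-10, altered the response of these macrophages to lipopolysaccharide (LPS), an outer membrane lipid of Gram-negative bacteria that is sensed by Toll-like receptor 4. Cells were left untreated, or were given 500 nM (+)-JQ1 or 10 ng/mL IL-10 for 12 hours, and then received 50 ng/mL LPS or PBS for a further 4 hours. The groups were therefore unstimulated, JQ1, IL-10, LPS, LPS + JQ1 and LPS + IL-10, with 3 libraries each. The labels call the cells without JQ1 or IL-10 untreated, while the methods name a vehicle control before LPS. Every group, controls included, lacked functional Il10, and no wild-type macrophage is among the libraries analysed here. IL-10 was thus present only where it was added.

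Type I interferons are secreted when a macrophage detects microbial products, and LPS does so through the adaptor TRIF and the factor IRF3. They bind the receptor IFNAR1/IFNAR2 on the same and neighbouring cells, and JAK kinases then set off the assembly of the complex ISGF3. ISGF3 binds interferon-stimulated response elements (ISREs) and switches on genes whose products recognise, degrade, tag or trap viral material. BET proteins read acetylated histones and help RNA polymerase II leave promoters, and (+)-JQ1 displaces them from chromatin.

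The members were grouped by role. There were 4 IFIT proteins, which bind viral RNA (Ifit1, Ifit2, Ifit3 and Ifit3b). The OAS family, enzymes or relatives of enzymes that make the oligoadenylates which activate RNase L, had 7 members (Oas1a, Oas1b, Oas1g, Oas2, Oas3, Oasl1 and Oasl2). The Mx GTPases were 2 (Mx1 and Mx2), and 5 genes belonged to the ISG15 tag and its conjugation (Isg15, Usp18, Uba7, Ube2l6 and Herc6). The TRIM E3 ligases numbered 3 (Trim21, Trim25 and Trim30a), and 4 genes encoded PARP enzymes and their partner DTX3L (Parp9, Parp12, Parp14 and Dtx3l). Nucleic acid sensing, editing and helicase genes made up the largest group with 10 members (Eif2ak2, Adar, Zbp1, Ddx60, Mov10, Znfx1, Helz2, Samd9l, Ifi204 and Ifi205). The remainder were 3 enzymes that act on nucleotides (Rsad2 and Cmpk2) or degrade RNA (Isg20), 2 membrane restriction factors (Ifitm3 and Bst2), 4 nuclear body or chromatin genes (Sp100, Daxx, Phf11b and Phf11d) and 7 other interferon-induced genes (Ifi44, Ifi27l2a, Ifi35, Rtp4, Xaf1, Tor3a and Lgals3bp).

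Promoter sequences of 6 members are shown because these genes spanned the range of responses to JQ1 described below. They were chosen after the values were seen: Isg15 and Rsad2 kept most of their LPS-stimulated level, Ifit1 was intermediate, and Ifit3, its near copy Ifit3b, and Ifi205 were among those that fell furthest. Each is the 200 bases before the RefSeq start site, taken from mm9 and written 5′ to 3′ in the direction of the gene. Capitals mark an ISRE core, GAAANNGAAA or its other strand TTTCNNTTTC; in Isg15 the marked run holds 3 overlapping matches.
Isg15, chr4:155574928-155575127, minus strand: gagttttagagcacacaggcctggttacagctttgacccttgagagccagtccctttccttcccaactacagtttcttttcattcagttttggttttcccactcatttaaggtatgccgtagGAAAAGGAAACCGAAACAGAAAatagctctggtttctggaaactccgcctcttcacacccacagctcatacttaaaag
Rsad2, chr12:27141318-27141517, minus strand: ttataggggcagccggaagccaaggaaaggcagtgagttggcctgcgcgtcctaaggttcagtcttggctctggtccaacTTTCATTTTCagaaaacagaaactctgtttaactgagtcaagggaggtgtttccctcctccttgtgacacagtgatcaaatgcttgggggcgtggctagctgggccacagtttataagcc
Ifit1, chr19:34715179-34715378, plus strand: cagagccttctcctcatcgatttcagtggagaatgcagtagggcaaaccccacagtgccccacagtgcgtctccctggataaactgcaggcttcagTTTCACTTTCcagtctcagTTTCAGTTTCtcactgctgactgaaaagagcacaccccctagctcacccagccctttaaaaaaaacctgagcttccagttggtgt
Ifit3, chr19:34657819-34658018, plus strand: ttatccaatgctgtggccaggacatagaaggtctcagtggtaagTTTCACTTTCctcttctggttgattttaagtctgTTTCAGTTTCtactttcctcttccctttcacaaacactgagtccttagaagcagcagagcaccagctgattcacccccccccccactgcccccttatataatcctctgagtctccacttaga
Ifit3b, chr19:34682247-34682446, plus strand: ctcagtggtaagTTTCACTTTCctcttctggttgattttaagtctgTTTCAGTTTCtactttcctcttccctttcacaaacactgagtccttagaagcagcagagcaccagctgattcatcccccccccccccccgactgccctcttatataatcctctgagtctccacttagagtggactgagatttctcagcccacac
Ifi205, chr1:175961887-175962086, minus strand: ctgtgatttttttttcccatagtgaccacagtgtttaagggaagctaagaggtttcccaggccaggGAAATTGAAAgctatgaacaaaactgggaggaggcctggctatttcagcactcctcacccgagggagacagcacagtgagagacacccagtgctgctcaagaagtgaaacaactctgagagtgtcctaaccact

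All 6 windows held at least 1 ISRE core, and Ifit1, Ifit3 and Ifit3b held a pair of separate ones, so the match was present in members that fell strongly with JQ1 and in members that did not pass the test. The 6 shown are not typical in this, since 23 members with a window had no match. Isg20, which fell furthest with JQ1 during LPS, Ifit2 and Cmpk2 were among those. Of the 51 members, 39 had a promoter window of 250 bases before to 50 bases after the start in the RefSeq table, which is built on GRCm38.p6, and each of their 50 windows was found exactly once on mm9. An ISRE core lay in 16 of the 39 (41.0%), compared with 3.93% of the 17536 genes with a window. The gamma-activated site motif GAS, searched as TTCNNNGAA, lay in 8 of 39 (20.5%) compared with 9.23% of all genes, and in Bst2 and Ifitm3 it overlapped an ISRE core. The median log2 differences of members with and without an ISRE core were 4.64 and 4.34 for LPS against unstimulated and -1.50 and -1.93 for LPS + JQ1 against LPS. For the interaction of JQ1 with LPS, described below, they were 0.02 and -0.76. These pairs of medians were not tested. A match is a description of the letters in this window, and 12 members had no window in the table.

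Several members lie side by side on mm9. Ifit2 (chr19:34625184-34650909) and Ifit3 (chr19:34658021-34663221) are neighbours on the plus strand of chromosome 19. Rsad2 (chr12:27127618-27141317, minus strand) and Cmpk2 (chr12:27154069-27164700, plus strand) are neighbours on chromosome 12 and are transcribed away from each other. Oas1g and Oas1a, Oas2 and Oas3, and Oasl2 and Oasl1 are neighbours on chromosome 5, Parp14, Dtx3l and Parp9 on chromosome 16, and Phf11b and Phf11d on chromosome 14. Near-identical copies share reads, and the division of reads between them is uncertain: the transcripts of Ifit3 and Ifit3b matched at 97.8% of 1700 aligned bases, those of Oas1a and Oas1g at 96.7% of 1894 and those of Mx1 and Mx2 at 94.8% of 920. Phf11b and Phf11d matched at 92.8% over 690 bases and Ifi204 and Ifi205 at 92.5% over 778.

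Libraries held 6781952 to 28289498 expected counts, so that a count of 3 corresponded to 0.106 to 0.442 CPM (counts scaled to the library total), a floor that covers counting error only. The disrupted gene, Il10, still had reads in every library, at 3.20 to 14.6 TPM (the level scaled by transcript length and library total). Of 8 macrophage markers 7 were listed, and their summed level was 12766 to 28292 TPM with Lyz2 highest, while the B and NK cell lists stayed under 1 TPM in sum. The neutrophil and granule precursor list reached 46.3 TPM in sum with S100a8 highest, although its member Ly6g was at 0 in every library. The fibroblast and T cell lists reached 9.63 and 8.62 TPM. In the T cell list Cd4 was highest in every library, whereas Cd3e, Cd3d and Cd8a stayed under 1 TPM. The plasmacytoid dendritic cell, dendritic cell and erythroid lists reached 3.69, 2.82 and 1.23 TPM. Replicate 1 of the unstimulated group stood apart for the genes described here: 50 of 51 were higher in it than in replicates 2 and 3, compared with 34.4% of 11390 expressed genes, by a median ratio of 1.66 to the mean of the other two. The counts of members called against the unstimulated group, and the members whose call or size turned on this library, are given with and without it. Total-count scaling and TPM shifted the median of all expressed genes by -0.96 and -0.67 (log2) for LPS against unstimulated and by 0.29 and 0.16 for LPS + JQ1 against LPS, where the median-of-ratios scaling used here gave -0.03 and -0.09. Set against those shifts, the members' median LPS response was 4.22 to 4.43 under every scaling, and their median JQ1 difference during LPS was -1.35 to -1.40. In bulk RNA a lower value from fewer cells of a kind and from less RNA per cell cannot be told apart.

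**Figure D1:**
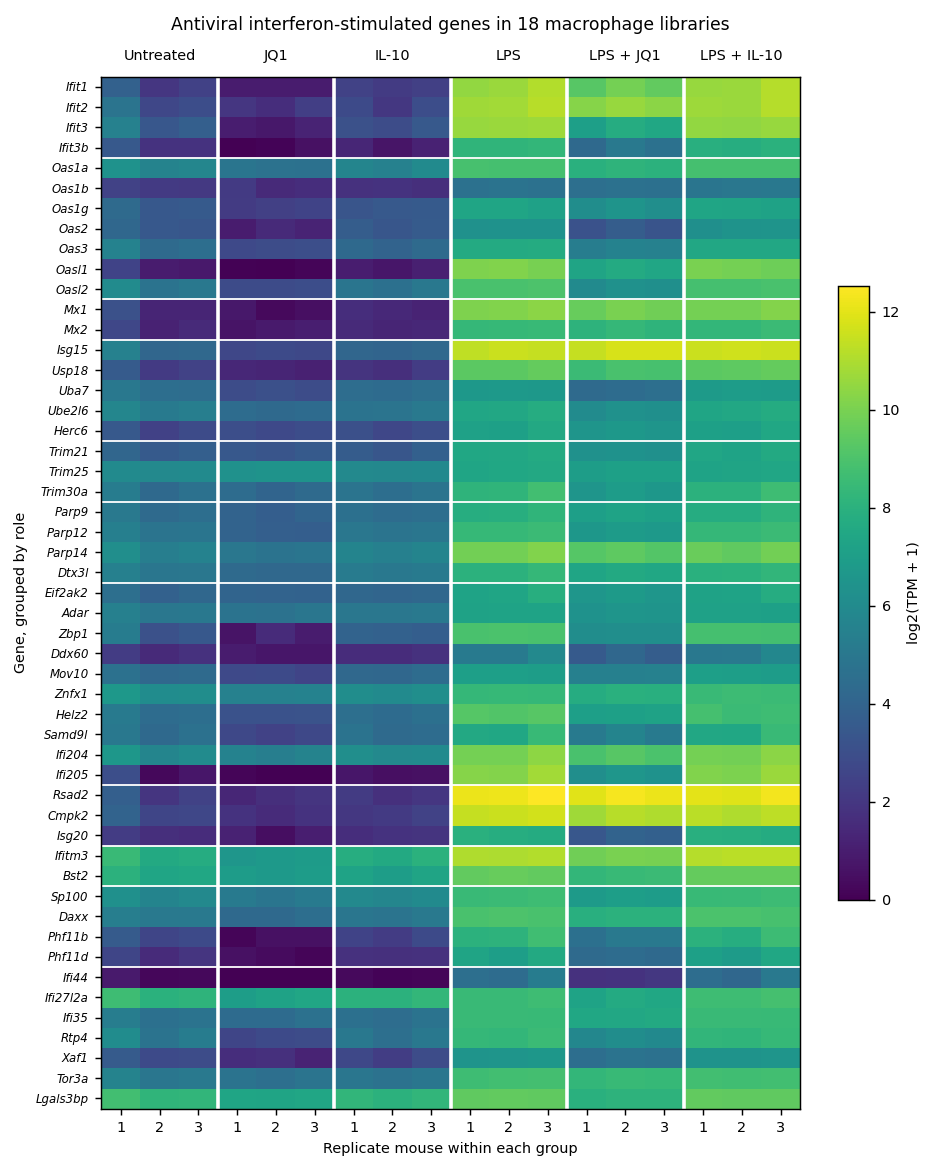
Level of each of the 51 genes, as log2(TPM + 1), in each of the 18 libraries, with genes in rows by role and libraries in columns by group and replicate. The 9 LPS-stimulated libraries stand above the 9 unstimulated ones for nearly every gene. Many rows are darker, that is lower, in the 3 LPS + JQ1 libraries than in the LPS libraries.

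LPS raised all 51 genes, although the rise of 1 of them, Ifi27l2a, depended on the scaling. At rest they held 0.175% to 0.299% of TPM, and after LPS 3.33% to 3.93%, a rise in their summed level from 2225 ± 670 to 35661 ± 3169 TPM (mean ± SD, n = 3). By DESeq2, 51 members were higher and 0 lower with LPS, where 31.6% of 14965 tested genes were higher and 32.9% lower; no member was lower at an unadjusted p under 0.05 or by edgeR, with 0 by each. The median log2 difference was 4.40 in the members, -0.03 in all expressed genes and 2.03 in the 2459 genes called LPS-induced, which were higher by at least 1 on the log2 scale. All adjusted p-values here are Benjamini-Hochberg values of the DESeq2 Wald test over all genes, and the errors of log2 differences are standard errors. Both rest on a spread per gene that was estimated over all 6 groups together, with 3 mice per group. Unstimulated replicate 1 therefore entered this spread also in comparisons that do not include its group.

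Rsad2, which encodes viperin, an enzyme that makes a chain-terminating nucleotide, rose furthest when all libraries were used. Its level was 13.0, 2.85 and 4.57 TPM in the unstimulated libraries of replicates 1, 2 and 3, and 4594, 4806 and 5928 TPM in the LPS libraries. No unstimulated library came near any LPS library, and the log2 difference was 10.33 ± 0.41 (SE, adjusted p = 6.2e-139). Ifi205, a DNA-binding protein of the pyrin and HIN domain family, went from 7.07, 0.22 and 0.68 to 1225, 1175 and 1749.5 TPM, a log2 difference of 9.80 ± 0.82 (SE, adjusted p = 2.2e-32). Oasl1, an OAS relative without synthetase activity that restrains IRF7 translation, went from 4.71, 0.92 and 0.83 to 1098, 1148 and 1007 TPM (9.74 ± 0.49, adjusted p = 2.5e-85). For all 3 genes the resting level was highest in replicate 1, and without that library the log2 differences were 11.14, 12.19 and 11.09, so that Ifi205 then rose furthest. All 51 members were called higher without it as well, and the shares of all genes called without it were not counted. The members' median LPS response without it was 4.72.

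By role, the enzymes that act on nucleotides or degrade RNA had the highest median log2 difference with LPS (9.23), followed by the Mx GTPases (8.42) and the IFIT proteins (7.46). The membrane restriction factors had the lowest (3.25), although their levels were high throughout. Without unstimulated replicate 1 these medians were 9.93, 9.46, 8.50 and 3.51. Ifitm3, which blocks fusion of enveloped viruses, was already at 357, 195 and 219 TPM at rest and reached 2091, 2058 and 2188 TPM. Bst2, the tetherin that holds virions at the cell surface, went from 267, 164 and 176 to 734, 778 and 731 TPM. Both rose, by 3.82 ± 0.15 and 2.67 ± 0.14 on the log2 scale, and by 4.11 and 2.90 without unstimulated replicate 1. Ifi27l2a had the smallest difference, 1.05 ± 0.14 (SE, adjusted p = 3.8e-13). Its TPM values, 401, 257 and 279.5 at rest and 364, 363 and 394 with LPS, overlapped through unstimulated replicate 1, without which they did not and the log2 difference was 1.24. Its rise was lost when libraries were scaled by total count or compared as TPM.

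After LPS the most abundant members were Rsad2, Cmpk2, Isg15 and Ifitm3. Isg15, the ubiquitin-like tag that is attached to viral and cellular proteins and is also secreted, went from 43.8, 16.5 and 17.6 to 2617, 3006 and 2734 TPM. Cmpk2, a mitochondrial nucleotide kinase, went from 15.1, 5.20 and 5.29 to 2760.0, 2959.8 and 3289.7 TPM. Among the less abundant members, the helicase gene Ddx60 reached 34.1, 34.6 and 57.9 TPM, Oas1b 24.2, 26.6 and 24.4 TPM and Ifi44 22.8, 20.5 and 36.8 TPM.

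Marker lists moved with LPS too: the macrophage list summed to 22467 to 24105 TPM unstimulated and 12766 to 13936 TPM with LPS. The dendritic cell list summed to 0.11 to 0.95 TPM and 2.08 to 2.82 TPM. The T cell list summed to 6.83 to 8.05 TPM and 2.73 to 3.84 TPM, nearly all of it Cd4, with means of 7.44 and 3.34 TPM. The part of these lists in the result was not tested.

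In the LPS + JQ1 libraries 46 of the 51 genes were lower than in the LPS libraries, 0 were higher, and 5 did not pass the test. Of all 14326 tested genes 32.9% were lower and 24.4% higher, and of the 2459 LPS-induced genes 80.4% were lower and 5.04% higher, so the members' share of 90.2% lower stood near that of LPS-induced genes. No member was higher at an unadjusted p under 0.05 (0 members) or by edgeR (0 members). The median log2 difference was -1.49 in the members, -0.87 in the LPS-induced genes and -0.09 in all expressed genes. Within mice, 50 of the 51 were lower in 3 of 3 pairs, with pair medians of -1.57, -1.41 and -1.59. Pair counts, here and below, rest on normalised counts, and the share of all genes was not counted. The summed level was 20258 ± 2352 TPM with JQ1 against 35661 ± 3169 without it (n = 3).

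**Figure D2:**
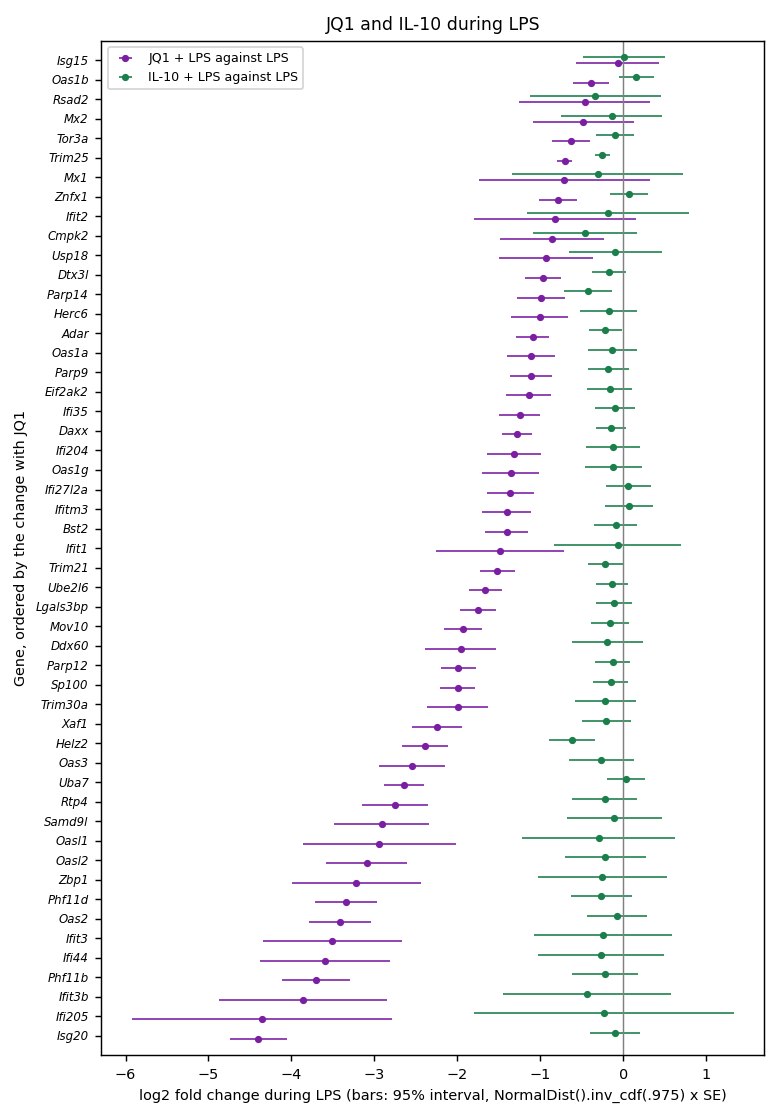
Log2 difference from the LPS libraries for each of the 51 genes with JQ1 and with IL-10, with bars for 95% intervals of the DESeq2 estimate (3 libraries per group). The JQ1 points run from -4.40 for Isg20 to -0.07 for Isg15, whereas the IL-10 points lie between -0.62 and 0.16.

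Isg20, an exonuclease that degrades single-stranded RNA (chr7:86058310-86065248, plus strand), had the largest difference. It stood at 244, 221 and 208 TPM in the LPS libraries and at 9.64, 14.7 and 13.3 TPM in the LPS + JQ1 libraries, a log2 difference of -4.40 ± 0.17 (SE, adjusted p = 6.7e-137). The 3 JQ1 values lay far below the LPS values and left 4.7% of the LPS level. Ifi205 went from 1225, 1175 and 1749.5 to 71.1, 95.3 and 82.2 TPM (-4.36 ± 0.80, adjusted p = 1.9e-07). Ifit3b, whose reads are shared with Ifit3, went from 289, 292 and 311 to 18.8, 33.1 and 24.5 TPM (-3.86 ± 0.52, adjusted p = 4.7e-13). In both genes every LPS + JQ1 library lay below every LPS library.

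As a share of the LPS level, computed from mean normalised counts, 8 members were under 10% with JQ1 (Ifit3, Ifit3b, Oas2, Ifi205, Isg20, Phf11b, Phf11d and Ifi44), 30 lay between 10% and 50%, and 13 were above 50%. The median was 35.7%. With IL-10 the same share ran from 65.1% to 111.7%, with a median of 88.7%.

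Families were split in their response to JQ1. Among the IFIT genes, 3 of 4 fell. Ifit3 went from 1527, 1592 and 1684 to 136, 215 and 173 TPM (-3.51 ± 0.43, adjusted p = 1.2e-15), and Ifit1 from 1445, 1623 and 2185 to 612, 972 and 727 TPM (-1.49 ± 0.39, adjusted p = 3.7e-04). Ifit2, the neighbour of Ifit3, at 1727, 1772 and 2349 TPM with LPS and 1208, 1549 and 1324 TPM with LPS + JQ1, did not pass the test (log2 difference -0.82 ± 0.50, adjusted p = 0.15). Its libraries nevertheless did not overlap, and Ifit2 was called lower when only these groups entered the fit. The log2 ratio of Ifit3 to Ifit2 in TPM was -0.27 ± 0.18 after LPS alone, -2.98 ± 0.16 after JQ1 and LPS, and -0.33 ± 0.20 after IL-10 and LPS (mean ± SD, n = 3); this pair, and the others given as ratios, were chosen after their values were seen. Over 24 such comparisons none passed an exact two-sided permutation test, which cannot go below p = 0.1 with 3 libraries against 3: for each ratio given here the p with JQ1 was 0.1 and the adjusted p was 0.16.

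All 7 OAS genes fell, but by different amounts. Oas2 went from 80.5, 81.8 and 81.5 to 7.89, 11.9 and 8.66 TPM (-3.42 ± 0.19, adjusted p = 4.1e-70), and its LPS + JQ1 libraries overlapped its resting values of 17.1, 9.89 and 9.15 TPM. Oas3 (-2.54 ± 0.20), Oasl2 (-3.09 ± 0.25) and Oasl1 (-2.94 ± 0.47) fell by similar amounts, whereas Oas1a, at 474, 463 and 449 TPM with LPS and 249, 283 and 264 TPM with LPS + JQ1, fell by less (-1.11 ± 0.15). The log2 ratio of Oas3 to Oas1a was -1.18 ± 0.08 with LPS and -2.62 ± 0.05 with LPS + JQ1. Oas1b had the smallest called difference of all members, -0.38 ± 0.11 (SE, adjusted p = 0.0012), and it was not called under total-count scaling, on TPM, when only these groups entered the fit, or without replicate 1 or replicate 2.

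Neither Mx GTPase passed the test. Mx1, a gene of the dynamin-like GTPases, was at 1118, 1147 and 1308 TPM with LPS and 783, 1030.1 and 886 TPM with LPS + JQ1 (log2 difference -0.71 ± 0.53, adjusted p = 0.25). Mx2 was at 325, 335 and 347 TPM with LPS and 277, 329.6 and 287 TPM with LPS + JQ1 (-0.48 ± 0.31, adjusted p = 0.18). Mx1 and Mx2, like Ifit2 and Rsad2, were called lower when only the compared groups entered the fit, and Mx1, Mx2 and Rsad2 also without replicate 1.

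The ISG15 system was split as well. Isg15 itself stood at 2617, 3006 and 2734 TPM with LPS and 2809, 3454 and 3553 TPM with LPS + JQ1; on the normalised count scale its log2 difference was -0.07 ± 0.25 (adjusted p = 0.84, 95% interval -0.56 to 0.43), so its direction turned with the scale. It was the only member not lower in all 3 pairs, with pair differences of -0.23, -0.19 and 0.22. Uba7, the enzyme that activates ISG15, went from 103, 111 and 103 to 19.3, 20.8 and 22.8 TPM (-2.64 ± 0.12, adjusted p = 5.4e-103), which overlapped its resting values of 31.1, 22 and 21.3 TPM. Ube2l6, the conjugating enzyme, and Herc6, the ligase of the mouse, fell, with log2 differences of -1.66 ± 0.10 and -1.01 ± 0.17. Usp18, which removes ISG15 and restrains the interferon receptor, went from 656, 674 and 749 to 376, 495 and 478 TPM (-0.93 ± 0.29, adjusted p = 0.0028), a call that was lost under total-count scaling.

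The 10 sensing, editing and helicase genes all fell. Zbp1, a sensor of Z-form nucleic acid that can trigger necroptosis, went from 485, 508 and 496 to 69.9, 72.5 and 71.0 TPM (-3.22 ± 0.40, adjusted p = 3.5e-15). Eif2ak2, the kinase PKR, which halts translation on double-stranded RNA, went from 154, 162 and 228 to 94.4, 113 and 95.6 TPM (-1.14 ± 0.14, adjusted p = 8.5e-16), and Adar, the RNA-editing adenosine deaminase, from 149, 153 and 152 to 83.6, 90.4 and 90.2 TPM (-1.09 ± 0.10, adjusted p = 5.9e-26). In all 3 genes the groups did not overlap. The related genes Ifi204 and Ifi205 differed most: Ifi204 kept 482, 612 and 507 TPM of 952, 959 and 1336 TPM (-1.32 ± 0.17), and the log2 ratio of Ifi205 to Ifi204 was 0.35 ± 0.05 with LPS and -2.69 ± 0.07 with LPS + JQ1. Helz2, Samd9l, Mov10, Ddx60 and Znfx1 had log2 differences of -2.38, -2.91, -1.93, -1.96 and -0.78.

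Rsad2 and its neighbour Cmpk2 kept a high level with JQ1. Rsad2 stood at 4594, 4806 and 5928 TPM with LPS and 3978, 5178 and 4552 TPM with LPS + JQ1, and its log2 difference was -0.46 ± 0.40 (adjusted p = 0.34). These TPM values overlapped, whereas its normalised counts were lower in every LPS + JQ1 library than in every LPS library. Cmpk2 went from 2760.0, 2959.8 and 3289.7 to 1694, 2369.7 and 2078 TPM (-0.86 ± 0.32, adjusted p = 0.014), and this call was lost under total-count scaling, on TPM and without replicate 3. The log2 ratio of Cmpk2 to Rsad2 was -0.76 ± 0.08 with LPS and -1.16 ± 0.06 with LPS + JQ1.

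Among the remaining groups every member fell. The membrane factors Ifitm3 and Bst2 had nearly the same log2 difference, -1.40 ± 0.15 and -1.41 ± 0.13. The PARP genes and Dtx3l ranged from -1.99 (Parp12) to -0.97 (Dtx3l), and the neighbours Parp9 and Dtx3l moved together, with a log2 ratio of -0.18 ± 0.03 with LPS and -0.32 ± 0.02 with LPS + JQ1. Of the nuclear body and chromatin genes, Phf11b and Phf11d had log2 differences of -3.71 ± 0.21 and -3.34 ± 0.19, and Sp100 and Daxx of -1.99 ± 0.11 and -1.28 ± 0.09. The differences of Trim30a, Trim21 and Trim25 were -2.0 ± 0.19, -1.52 ± 0.11 and -0.71 ± 0.05. The other interferon-induced genes ranged from -3.59 for Ifi44 to -0.63 for Tor3a, whose call was lost under total-count scaling.

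Marker lists moved beside the JQ1 difference. The macrophage list summed to 12766 to 13936 TPM with LPS and 17923 to 20528 TPM with LPS + JQ1, a rise in which Lyz2 alone went from a mean of 10214 to 15998 TPM. Of its other markers, Adgre1 and Csf1r had higher means with JQ1, whereas Cd68, Itgam, Mertk and Fcgr1 had lower ones, with Itgam at 196 and 50.2 TPM and Fcgr1 at 270.0 and 12.5 TPM. The neutrophil and granule precursor list (Ly6g at 0) summed to 19.3 to 28.4 TPM and 5.99 to 13.0 TPM. The plasmacytoid dendritic cell list (Klk1 at 0) summed to 2.68 to 3.14 TPM and 1.31 to 1.54 TPM. The dendritic cell list summed to 2.08 to 2.82 TPM and 1.12 to 1.41 TPM. The T cell list, nearly all of it Cd4, summed to 2.73 to 3.84 TPM and 1.83 to 2.62 TPM. The sums of the B cell, NK cell, fibroblast and erythroid lists overlapped. The part of these marker levels in the result was not tested.

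**Figure D3:**
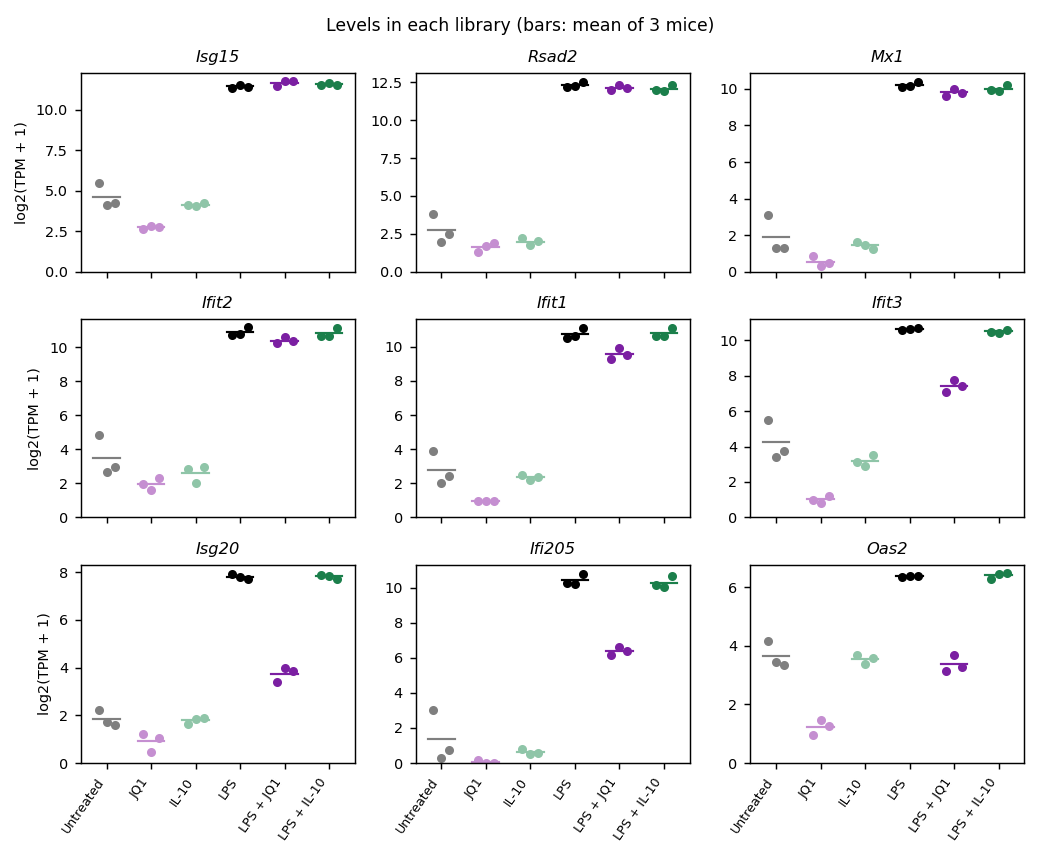
Level of 9 members, as log2(TPM + 1), in each library of the 6 groups, with 1 point per library and a bar at the group mean. Isg15, Rsad2 and Mx1 stay near their LPS level in the LPS + JQ1 group, whereas Isg20, Ifit3 and Ifi205 stand well below it, and the LPS + IL-10 points lie beside the LPS points.

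With IL-10 given before LPS few of these genes passed the test, and the differences were small. Only Helz2, Parp14 and Trim25 were lower than with LPS alone, and 0 were higher, where 8.81% of 11448 tested genes were lower and 8.38% higher, and where 25.7% of the LPS-induced genes were lower and 7.48% higher. The members' 5.88% lower was below the share of LPS-induced genes, a difference that was not tested. At an unadjusted p under 0.05, 5 members were lower and 0 higher, and edgeR called 2 lower and 0 higher. The median log2 difference was -0.17 in the members, -0.16 in LPS-induced genes and -0.02 in all expressed genes. Within mice 43 of the 51 members were lower in 3 of 3 pairs and 5 were higher, with pair medians of -0.14, -0.21 and -0.15. The share of LPS-induced or all genes lower in 3 of 3 pairs was not counted, and the size turned on the scaling. On TPM the median was -0.06 in the members and 0.07 in all expressed genes. With the mouse as a replicate block the 3 calls were unchanged. The dendritic cell marker list summed to 1.30 to 1.97 TPM with LPS + IL-10, below its 2.08 to 2.82 TPM with LPS, and the other lists overlapped; the part of this list in the result was not tested.

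Helz2, a helicase and nuclear receptor coactivator, was at 591, 568 and 611 TPM with LPS and 461, 374 and 404 TPM with LPS + IL-10, which did not overlap (-0.62 ± 0.14, adjusted p = 1.6e-04). Parp14, an ADP-ribosyltransferase active in STAT6 signalling, was at 933, 933 and 1159 TPM with LPS and 803, 709 and 919.9 TPM with LPS + IL-10 (-0.42 ± 0.15, adjusted p = 0.028), and its lowest LPS library stood just above its highest LPS + IL-10 library. Trim25, the E3 ligase that modifies the sensor RIG-I, was at 165, 178 and 186 TPM with LPS and 154, 158 and 168 TPM with LPS + IL-10 (-0.25 ± 0.05, adjusted p = 1.1e-06). On TPM its highest LPS + IL-10 library lay above its lowest LPS library, whereas its normalised counts, on which the test rests, did not overlap. Each of these differences was small next to that of the same gene with JQ1, which was -2.38 ± 0.14, -0.99 ± 0.15 and -0.71 ± 0.05. Parp14 was not called by edgeR, under total-count scaling, on TPM or without replicate 2 or 3, and Trim25 was not called on TPM, without replicate 2 or when only these groups entered the fit. On TPM, or without replicate 2, 1 member remained called, Helz2. Other settings added calls: Ifit3b and Cmpk2 were lower when only these groups entered the fit, and Ifit3b, Oas3 and Cmpk2 without replicate 1, which gave 6 calls.

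The absence of a call does not show that the other 48 genes were the same with IL-10. For 41 of the 51 members the 95% interval of the log2 difference lay within -1 and 1, whereas for Ifit2, Ifit3, Ifit3b, Oasl1, Mx1, Zbp1, Ifi205, Rsad2, Cmpk2 and Ifi44 it reached beyond. The spread behind these intervals was estimated over all 6 groups, so unstimulated replicate 1 entered it. In that library the genes reaching beyond were at 2.8 to 14.1 times the mean of replicates 2 and 3. Ifit1 and Mx2, at 3.65 and 3.29 times, stayed within. In the compared libraries Zbp1 stood at 485, 508 and 496 TPM with LPS and 449, 454 and 447 TPM with LPS + IL-10. The part of replicate 1 in the widths was not tested. For Isg15 the interval was -0.48 to 0.51, with TPM values of 2910.0, 3200.2 and 2937, and for Ifi205 it was -1.80 to 1.34. Isg20 stood at 237, 229.7 and 210.5 TPM with LPS + IL-10, in the midst of the LPS values.

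JQ1 and IL-10 were also compared directly during LPS. With LPS + JQ1 45 members were lower than with LPS + IL-10 and 0 higher (0 at an unadjusted p under 0.05 and 0 by edgeR), where 31.6% of 14326 tested genes were lower and 23.8% higher. The median log2 difference was -1.42 in the members and -0.08 in all expressed genes. Isg20 (-4.30 ± 0.17, adjusted p = 7.3e-131), Ifi205 (-4.13 ± 0.80, adjusted p = 8.9e-07) and Phf11b (-3.49 ± 0.21, adjusted p = 2.9e-60) differed most. Ifit2, Mx1, Mx2, Isg15, Rsad2 and Cmpk2 did not pass the test. This comparison shares libraries with both preceding ones, so its values are no separate evidence of either.

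In macrophages without LPS, JQ1 lowered most of these genes below their already low resting levels. There 43 members were lower and 1 higher, where 23.7% of 13686 tested genes were lower and 21.9% higher. The median log2 difference was -1.46 in the members and 0.02 in all expressed genes, and the summed level was 1077 ± 58 TPM with JQ1 against 2225 ± 670 TPM (n = 3). Within mice 46 members were lower in 3 of 3 pairs, with pair medians of -1.84, -1.01 and -0.80. Without replicate 1 of the unstimulated group 40 were lower and 2 higher, with a median of -0.88: Ifi204, Isg20 and Tor3a were no longer called lower, and Herc6 was called higher. Leaving replicate 1 out of all groups ended the calls of Ifit2, Mx2 and Rsad2 as well. The shares of all genes called without these libraries were not counted.

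Ifi44 had 0 counts in the 3 JQ1 libraries and 30 in the unstimulated ones, and was at least 9.65-fold lower, taking a floor of 3 counts over the group. Ifi205 had 2 counts with JQ1 and 105 without, a ratio of 50.7 with a 95% counting interval of 13.7 to 424. Oasl1 had 3 and 110 counts, a ratio of 35.4 with an interval of 11.8 to 174. All 3 genes were lower in JQ1-treated cells, and for each the highest unstimulated value was that of replicate 1, so the size of the difference depends on that library. Without it the fitted log2 differences were -4.50 for Ifi44, -3.09 for Ifi205 and -3.71 for Oasl1, compared with -5.67, -5.51 and -5.07 with it. The members' median stayed at -1.46 when these 3 genes were set at those values.

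Members with more counts at rest fell as well. Ifit3 went from 44.9, 9.57 and 12.7 to 0.99, 0.78 and 1.34 TPM (-4.24 ± 0.47, adjusted p = 8.3e-18), and Zbp1 from 36.9, 7.68 and 9.86 to 0.58, 1.94 and 0.94 TPM (-3.69 ± 0.48, adjusted p = 1.7e-13). Ifitm3, one of the more abundant members at rest, went from 357, 195 and 219 to 95.7, 104 and 118 TPM (-1.08 ± 0.16, adjusted p = 6.9e-11). In all 3 genes no JQ1 library reached an unstimulated one. Isg15 at rest went from 43.8, 16.5 and 17.6 to 5.27, 6.06 and 5.65 TPM (-2.01 ± 0.31, adjusted p = 5.8e-10), and Rsad2 from 13.0, 2.85 and 4.57 to 1.51, 2.22 and 2.76 TPM (-1.45 ± 0.42, adjusted p = 0.0019). Both therefore fell with JQ1 at rest, but the Rsad2 call was lost when only these groups entered the fit or when replicate 1 was left out of all groups. With only the unstimulated replicate 1 left out, the log2 differences were -3.26 for Ifit3, -2.69 for Zbp1, -1.41 for Isg15 and -0.64 for Rsad2, all still called.

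Trim25 alone rose, from 62.2, 59.5 and 62.4 to 80.0, 84.5 and 84.7 TPM (0.65 ± 0.05, adjusted p = 4.1e-38). Its 3 JQ1 libraries all lay above the unstimulated ones, in which replicate 1 did not stand apart. The 7 members that did not pass the test were Herc6, Trim21, Trim30a, Eif2ak2, Adar, Oas1b and Ifi35. Trim21 was called lower under total-count scaling and on TPM, Trim30a under total-count scaling, and Oas1b, Adar and Ifi35 under both.

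Marker levels differed here too. The macrophage list summed to 22467 to 24105 TPM unstimulated and 28155 to 28292 TPM with JQ1, and Lyz2 alone went from a mean of 18407 to 24665 TPM. Mertk was also higher in the mean, while Adgre1, Cd68, Csf1r, Itgam and Fcgr1 were lower, with Itgam at 309 and 86.3 TPM and Fcgr1 at 118 and 10.5 TPM. The plasmacytoid dendritic cell list summed to 2.05 to 3.39 TPM and 0.64 to 1.5 TPM, and the neutrophil and granule precursor list to 9.85 to 43.4 TPM and 3.61 to 9.35 TPM. The T cell list, nearly all of it Cd4, summed to 6.83 to 8.05 TPM and 3.06 to 3.92 TPM, while the other lists overlapped. The part of these marker lists in the result was not tested.

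**Figure D4:**
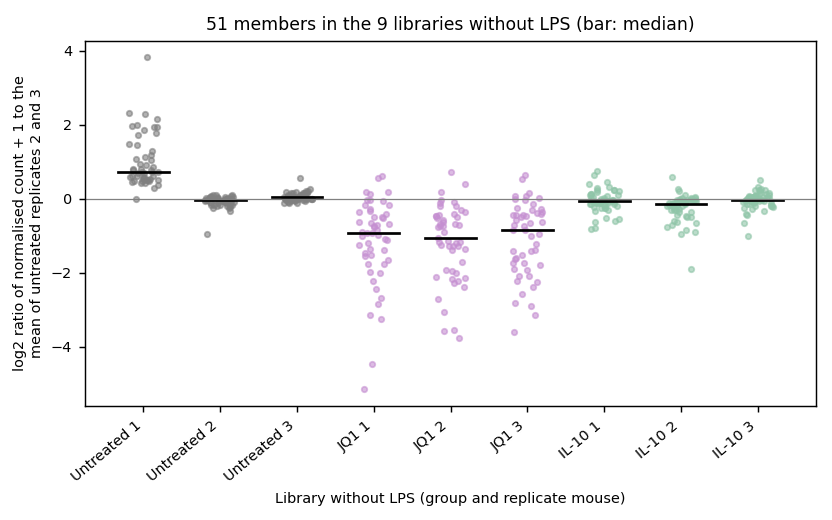
Level of each of the 51 genes in each of the 9 libraries without LPS, as the log2 ratio of its normalised count + 1 to the mean of unstimulated replicates 2 and 3, with 1 point per gene and library and a bar at each library's median. The median of unstimulated replicate 1 stands above those of all other libraries and the medians of the 3 JQ1 libraries below, while single points overlap.

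IL-10 alone was followed by fewer and smaller differences, which depended on 1 library. With IL-10 12 members were lower and 0 higher than in unstimulated cells, where 1.01% of 12727 tested genes were lower and 1.8% higher. At an unadjusted p under 0.05, 32 were lower and 0 higher, and edgeR called 4 lower and 0 higher. Without replicate 1 of the unstimulated group 3 of the 12 remained (Ifit3b, Ube2l6 and Cmpk2) and Zbp1 was called higher. The members' median without that library was -0.06, and the shares of all genes called without it were not counted. The pair medians were -0.79 in mouse 1 and -0.13 and -0.06 in the other two.

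Ifit3b was at 10.4, 2.61 and 2.61 TPM unstimulated and 1.5, 0.62 and 1.33 TPM with IL-10 (-2.21 ± 0.55, adjusted p = 0.005), and Ifit3 at 44.9, 9.57 and 12.7 TPM unstimulated and 7.68, 6.57 and 10.4 TPM with IL-10 (-1.50 ± 0.43, adjusted p = 0.024). Cmpk2 was at 15.1, 5.20 and 5.29 TPM unstimulated and 3.15, 3.34 and 4.51 TPM with IL-10 (-1.28 ± 0.34, adjusted p = 0.0084). Without unstimulated replicate 1 the log2 differences were -1.14 for Ifit3b, -0.54 for Ifit3, which was then not called, and -0.60 for Cmpk2. Of the 3 IL-10 values of Ifit3 on TPM, 1 lay between unstimulated replicates 2 and 3 and 2 lay below them. As normalised counts all 3 lay below both. The other members called were Oas1b, Oas3, Usp18, Ube2l6, Bst2, Daxx, Rtp4, Xaf1 and Tor3a.

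In replicate 1 of the unstimulated group, 18 of the 51 members were over 2 times the mean of replicates 2 and 3, and the largest ratio was 14.1. In replicates 1, 2 and 3 the plasmacytoid dendritic cell list summed to 3.39, 2.05 and 2.42 TPM, the dendritic cell list to 0.95, 0.11 and 0.92 TPM, the B cell list to 0.89, 0.20 and 0.84 TPM and the macrophage list to 24105, 22467 and 23316 TPM, each highest in replicate 1. The neutrophil and granule precursor list, at 15.3, 9.85 and 43.4 TPM, was highest in replicate 3, as were the T cell, NK cell, fibroblast and erythroid lists. The origin of the higher level in this library was not tested.

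LPS still raised these genes in JQ1-treated macrophages. By DESeq2, 51 were higher and 0 lower in LPS + JQ1 than in JQ1 (0 lower at an unadjusted p under 0.05 and 0 by edgeR), where 27.6% of 13686 tested genes were higher and 31% lower. The median log2 difference was 3.85 in the members and 1.22 in LPS-induced genes. Under total-count scaling and on TPM 50 were called, without Ifi27l2a, whose TPM values of 125, 147 and 168 with JQ1 and 154, 202 and 178 with LPS + JQ1 overlapped. Oasl1 rose from 3 counts to 9163, a ratio of 3740 with a counting interval of 1280 to 18100. Rsad2 and Mx1 rose by 11.31 ± 0.42 (SE, adjusted p = 1.5e-160) and 11.20 ± 0.58 (SE, adjusted p = 8.9e-81) on the log2 scale. Ifi44 was at least 80.3-fold higher than in JQ1 cells, where it had 0 counts.

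In IL-10-treated macrophages LPS also raised 51 members and lowered 0 (0 at an unadjusted p under 0.05 and 0 by edgeR), where 33.2% of 14326 tested genes were higher and 33.8% lower, with a median log2 difference of 4.71. Ifi205 (11.86 ± 0.85, adjusted p = 2.0e-43), Rsad2 (11.23 ± 0.41, adjusted p = 3.2e-162) and Oasl1 (10.71 ± 0.51, adjusted p = 4.9e-98) rose most. Across the 51 genes the LPS response with JQ1 and that without it, which share no library, had r = 0.97 and rho = 0.94, a description of genes that share libraries and partly sequence, not of replicates. The differences made by JQ1 at rest and during LPS, which also share no library, had r = 0.71 and rho = 0.57, and those made by IL-10 r = 0.32 and rho = 0.27. Without unstimulated replicate 1 the r values were 0.97, 0.76 and 0.12 and the rho values 0.94, 0.67 and 0.03.

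The interaction of JQ1 with LPS asks whether the log2 difference made by JQ1 was another during LPS than at rest. It was below 0 for 18 members and above 0 for 3, where 23.8% of 12727 tested genes were below and 17.7% above; the median was -0.33 in the members and -0.05 in all expressed genes. The split moved with the scaling: it was 17 below and 5 above with TMM factors, and 9 below and 12 above with total-count scaling, which moved the median of all genes to 0.50. Without replicate 1 of the unstimulated group it was 31 below and 1 above. The shares of all genes below and above were counted in the main fit only. Whether the moved counts are particular to the members therefore cannot be told.

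Isg20 had the lowest interaction, -3.11 ± 0.43 (SE, adjusted p = 4.6e-12). At rest it fell with JQ1 from 3.63, 2.25 and 2.00 to 1.30, 0.38 and 1.10 TPM (-1.29 ± 0.39), a call that was lost without unstimulated replicate 1, and its difference during LPS was larger. Without that library its interaction was -3.45. Trim30a (-1.66 ± 0.27, adjusted p = 5.9e-09) and Trim25 (-1.35 ± 0.07, adjusted p = 1.2e-87) followed; Trim30a was at 37.4, 18.2 and 24.6 TPM unstimulated and 20.5, 15.6 and 19.1 TPM with JQ1, but went from 287, 289 and 428 to 91.2, 120.1 and 98.2 TPM during LPS. All 3 TRIM genes had an interaction below 0.

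On the other side were Mx1 (2.01 ± 0.79, adjusted p = 0.029), Isg15 (1.94 ± 0.40, adjusted p = 6.7e-06) and Usp18 (1.07 ± 0.46, adjusted p = 0.047), which JQ1 lowered more at rest than during LPS. Mx1 went from 7.51, 1.48 and 1.48 to 0.78, 0.23 and 0.41 TPM at rest, levels far below those after LPS. Isg15 kept its call in every alternative fit, whereas Mx1 and Usp18 lost theirs without unstimulated replicate 1. Without that library the interactions were 0.74 for Mx1 (adjusted p = 0.078), 1.35 for Isg15 and 0.44 for Usp18 (adjusted p = 0.19). With the mouse as a replicate block, Usp18 had an interaction of 1.03 (adjusted p = 0.0657), and the count above 0 was 2.

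**Figure D5:**
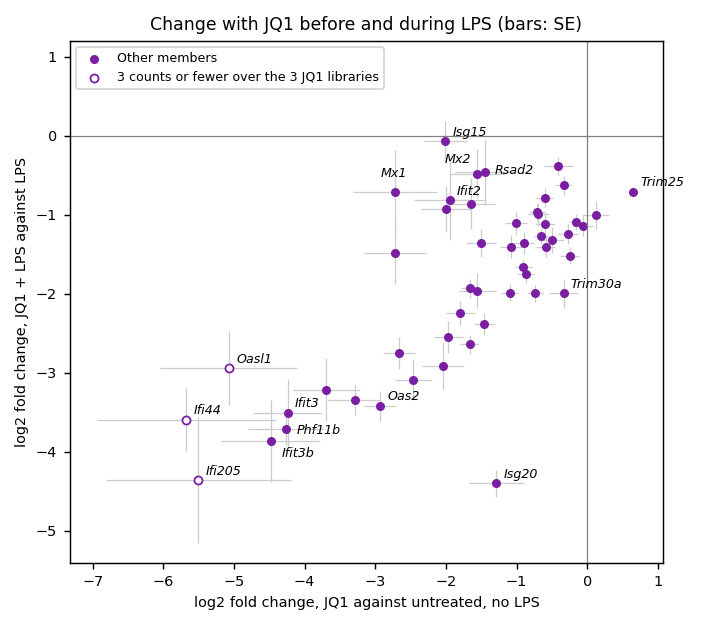
Log2 difference made by JQ1 at rest (horizontal axis) and during LPS (vertical axis) for each of the 51 genes, with bars for standard errors, lines at 0 and open circles for genes with 3 counts or fewer over the 3 JQ1 libraries. Isg20 lies at -1.29 at rest and -4.40 during LPS, Isg15 at -2.01 and -0.07, and Trim25 to the right of 0 and below it.

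The interaction of IL-10 with LPS was above 0 for 2 members and below 0 for 0, where 4% of 10808 tested genes were above and 3.44% below. At an unadjusted p under 0.05, 8 members were above and 0 below, and edgeR gave 2 and 0. The members were Oas1b (0.85 ± 0.22, adjusted p = 0.0036) and Ube2l6 (0.49 ± 0.15, adjusted p = 0.021). Oas1b was at 4.57, 3.39 and 3.21 TPM unstimulated and 2.40, 2.57 and 2.23 TPM with IL-10, and at 24.2, 26.6 and 24.4 TPM with LPS and 28.5, 30.8 and 31.7 TPM with LPS + IL-10. Both calls were lost without unstimulated replicate 1, where the interactions were 0.65 (adjusted p = 0.11) and 0.32 (adjusted p = 0.14).

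Of 36 further genes of the interferon pathway itself, written as a list beside the members, 32 had an adjusted p. LPS raised 26 and lowered 5, where 31.6% of all tested genes were higher and 32.9% lower. With JQ1 during LPS 23 were lower and 5 higher, where 32.9% of all tested genes and 80.4% of LPS-induced genes were lower and 24.4% and 5.04% higher. With IL-10 during LPS 7 were lower and 6 higher, against 8.81% and 8.38% of all tested genes. JQ1 alone lowered 16 and raised 7, against 23.7% and 21.9%, and IL-10 alone raised 2 and lowered 0, against 1.8% and 1.01%. Without unstimulated replicate 1 LPS raised 26 and lowered 4, JQ1 alone lowered 14 and raised 8, and IL-10 alone raised 3 and lowered 0. The shares of all genes called without that library were not counted.

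Ifnb1, the interferon-beta ligand, had 0 counts in the 3 unstimulated libraries and was at least 160-fold higher with LPS. After LPS alone its level was 14.8, 20.3 and 23.5 TPM, after JQ1 and LPS 0.36, 0.93 and 1.03 TPM, and after IL-10 and LPS 10.3, 4.68 and 8.51 TPM. The 3 groups did not overlap: Ifnb1 fell with JQ1, with a log2 difference of -4.96 ± 0.52 (SE, adjusted p = 5.8e-21), and with IL-10, with one of -1.40 ± 0.33 (SE, adjusted p = 3.4e-04). Ifna1, Ifna2, Ifna4 and Ifna5 were at or under the floor of 3 counts in every group and so could not be assessed at this depth. The receptor gene Ifnar1 rose by 0.40 ± 0.08 (SE, adjusted p = 1.2e-06) with JQ1 and by 0.55 ± 0.08 (SE, adjusted p = 1.5e-10) with IL-10, whereas Ifnar2 fell with JQ1 (-0.50 ± 0.07) and rose with IL-10 (0.51 ± 0.07). On TPM Ifnar2 stood at 205, 215 and 226 with LPS and 209, 197 and 189 with LPS + JQ1, which overlapped. Its LPS + IL-10 values of 264, 308 and 311 TPM lay above those with LPS.

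Of the transcription factors of the pathway, Stat2 and Irf9 fell with JQ1 during LPS, with log2 differences of -0.86 ± 0.17 (SE, adjusted p = 6.5e-07) and -1.06 ± 0.07 (SE, adjusted p = 7.1e-44). Irf7, which amplifies interferon production, fell too (-0.89 ± 0.37, adjusted p = 0.028), while Irf3, which starts it, rose by 0.70 ± 0.11 (SE, adjusted p = 1.3e-10). The RNA sensors Ifih1 (MDA5), Ddx58 (RIG-I) and Dhx58 (LGP2) fell with JQ1, with log2 differences of -2.25 ± 0.14, -1.65 ± 0.18 and -2.57 ± 0.16, and so did Tmem173, the DNA-signalling adaptor STING (-2.51 ± 0.15). With IL-10 the log2 differences were -0.41 ± 0.14 for Ifih1 and -0.62 ± 0.12 for Tmem173. Irf8 fell more with IL-10 (-1.45 ± 0.16) than with JQ1 (-0.78 ± 0.16; direct comparison 0.68 ± 0.16, adjusted p = 6.7e-05), and Irf1 fell with both (-0.90 ± 0.27 and -1.07 ± 0.27). Tlr4, the LPS receptor, fell with JQ1 (-1.89 ± 0.21, adjusted p = 1.2e-17). What part the pathway genes had in the members' differences was not tested.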

How the data were processed

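RNA was sequenced from paired-end, ribosomal RNA-depleted, stranded (KAPA RiboErase) libraries of BMDMs from 3 Il10-/- mice in 6 groups. Per the study's methods and the submitters' processing notes, reads were cleaned with TagDust, aligned to mm9 with STAR and quantified with RSEM 1.2.31. The authors deposited, for each library, a table of expected counts, TPM and FPKM per gene for 24485 genes, of which 7578 were at 0 in every library. Expected counts share multi-mapping reads between similar genes by estimate, and 5.40% to 6.63% of them per library were not whole. They were rounded for the count tests; the deposited TPM values were used for levels per length, and the FPKM values and transcript lengths were not used. No strand setting of RSEM is given in the sources used here, so overlapping genes on opposite strands cannot be told apart.

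Counts of all 18 libraries were fitted in R 4.3.3 with DESeq2 1.42.0 by the Wald test, which the study's methods name; 1 fit of all libraries with a group term, median-of-ratios scaling and independent filtering were chosen here. edgeR 4.0.16 was run as an alternative. A call means a Benjamini-Hochberg adjusted p under 0.05 over all genes tested, and LPS-induced genes also had a log2 difference of at least 1. All-gene medians are over genes whose mean normalised count reached 10. Interactions compare the effect of JQ1 or IL-10 with and without LPS. Alternatives were edgeR with TMM, DESeq2 with TMM factors, with total-count scaling, with the replicate block, with the lane as a covariate, on only the compared groups, without independent filtering and on the 12251 genes that reached 10 counts in 3 or more libraries (51 members did), limma 3.58.1 on log2(TPM + 1), and leaving out each replicate. The fits were tested on simulated counts.

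Members and lists were chosen with earlier results of these data known. Named members were those with the 3 largest rises and 3 largest falls among called genes whose mean normalised count reached 100, plus the interferon pathway list; others were named to describe each role. The labels describe libraries with the same number as matched from 1 mouse. The correlation of same-numbered libraries' deviations from their group means ran from -0.124 to 0.469 over pairs of groups. Libraries of replicate 1 were on lane 7 and those of replicate 3 on lane 8, while the unstimulated libraries of replicate 2 were on lane 7 and its LPS libraries on lane 8. Replicate libraries differed beyond sampling noise (chi-square per degree of freedom 4.14 to 30.5), so none was a repeat deposit. Intervals of count ratios are exact 95% intervals and cover counting error only. Positions are those of GENCODE genes on mm9, which listed no Ifit3b, Helz2, Phf11b or Phf11d under these symbols. Motifs were searched on both strands.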

Additional observations from a re-analysis of the deposited data

Results flagged for a closer look

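Effects that differed between resting and LPS-stimulated macrophages were picked out by the interaction term of the DESeq2 fit. For JQ1, 18 members had a log2 interaction below 0 and 3 above 0, where 23.8% of 12727 tested genes were below and 17.7% above. The largest below 0 were Isg20 (-3.11), Trim30a (-1.66) and Trim25 (-1.35). Trim25 rose with JQ1 at rest and fell with it during LPS. Those above 0 were Mx1 (2.01), Isg15 (1.94) and Usp18 (1.07). The counts rest in part on replicate 1 of the unstimulated group, without which 31 were below 0 and 1 above. The shares of all genes without that library were not counted.

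For IL-10, 2 members had an interaction above 0 and 0 below, where 4% of 10808 tested genes were above and 3.44% below. The 2 were Oas1b (0.85) and Ube2l6 (0.49), and neither was called without that library. With 3 libraries per group no single library was tested as an outlier.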

How the results depend on the processing

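The counts of members called, taken with the count of LPS-induced genes, stayed within 1.5 times the reported one 234 times under the alternatives and moved 29 times. A count of 0 that stayed at 0 is among the former. No called member changed direction under any alternative. Values of the named members, picked among the largest called differences, kept their side of the threshold 370 times and lost a call 46 times. The 370 also hold the ISRE and GAS shares given below, which carry no call. The shares of all genes called were counted in the main fit only, so the counts under the alternatives have none beside them. The counts for LPS in any pretreatment, for JQ1 during LPS and for JQ1 against IL-10 did not move by more than 1.5 times. Members lower with IL-10 alone (12) were 4 by edgeR, 0 by limma on TPM and 3 when only the compared groups entered the fit, and 1 to 14 with a replicate left out, while members higher with IL-10 alone were 0 to 1. Those higher with JQ1 alone (1) were 1 to 2 with a replicate left out. Those lower with IL-10 during LPS (3) were 1 by limma and 1 to 6 with a replicate left out. Interactions of JQ1 with LPS above 0 (3) were 5 with TMM factors, 12 with total-count scaling, 1 by limma, 1 on only the compared groups and 1 to 2 with a replicate left out. Those below 0 (18) were 9 with total-count scaling and 15 to 31 with a replicate left out. Interactions of IL-10 with LPS above 0 (2) were 1 by limma, 1 on only the compared groups and 0 to 3 with a replicate left out, and those below 0 (0) were 0 to 3. The LPS-induced genes (2459) were 1262 with total-count scaling and 1283 by limma. The cause of these moves was not tested, apart from the scaling shifts given above. With the mouse as a replicate block, the interaction of JQ1 with LPS for Usp18 was 1.03 (adjusted p = 0.0657), and the block changed no other call.

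The ISRE core lay in 33.3% of members when only the bases before the start were searched, compared with 3.44% of all genes, and the GAS motif in 12.8%, compared with 7.91%. With 3 mice per group, the resting differences of IL-10 rest largely on replicate 1 of the unstimulated group. Members at a few counts at rest (Ifi44, Ifi205 and Oasl1 with JQ1) have sizes limited by counting, and reads of near-identical copies may be divided wrongly.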
